A study of Mus musculus with 12 samples.

Results

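The RNA levels of 10 genes of the BCL2 family were compared in mouse microglia, the resident macrophages of the brain, after sham surgery or stroke and with or without the histone deacetylase HDAC3. The genes were found by their symbols among the 55401 gene identifiers counted in each library. They are the survival genes Bcl2a1a, Bcl2a1b, Bcl2a1d, Bcl2, Bcl2l1 and Mcl1, the pore-forming genes Bax and Bak1, and the death-promoting genes Bcl2l11 and Bbc3. All 10 were found, and all 10 were among the 16451 genes that passed the filter on low counts. The cells were CD45int CD11b+ cells sorted from the brains of male mice, and their RNA was sequenced as 12 paired-end libraries. Sham-operated mice gave 3 libraries of each genotype (WT-Sham and miKO-Sham), as did mice with stroke (WT-tFCI and miKO-tFCI). Transient focal cerebral ischemia (tFCI) was produced by blocking the middle cerebral artery for 60 min, cells were taken on day 3, and each library combined cells from 3 to 4 hemispheres. Sham mice had the anesthesia and the exposure of the artery alone. WT mice carried HDAC3 loxp/loxp without Cre and with both Cx3cr1 alleles intact. The miKO mice carried HDAC3 loxp/loxp with a tamoxifen-activated Cre (CreER) placed in 1 Cx3cr1 allele, so that they also lacked that allele. Tamoxifen was given to both genotypes at least 1 month before surgery, and Cre from Cx3cr1 acts in microglia and in other cells that express this gene. The paper chose this interval so that nearly all circulating monocytes had been replaced from precursors with HDAC3. After stroke it reports Hdac3 RNA as lower in sorted miKO microglia and as unchanged in sorted infiltrated macrophages. The labels place replicate 1 of each group in batch 1 and replicates 2 and 3 in batch 2.

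BCL2 family proteins decide whether the outer membrane of the mitochondria stays intact. BCL2, BCL-XL (encoded by Bcl2l1), MCL1 and A1 (encoded by the Bcl2a1 genes) hold back BAX and BAK, which otherwise form pores that release cytochrome c and start the caspase cascade. BIM (encoded by Bcl2l11) and PUMA (encoded by Bbc3) belong to the BH3-only proteins, which bind the survival proteins and set BAX and BAK free, and PUMA is a classical target of p53. A1 is a survival gene of blood and immune cells and a target of NF-kappaB, and in mice its locus was duplicated into several near-identical copies.

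These copies bear on every count of Bcl2a1 below, so their sequences are shown first. In GENCODE M21 (GRCm38), Bcl2a1a lies on chromosome 9 from 88956900 to 88962419 on the plus strand, Bcl2a1b from 89199209 to 89207827 on the plus strand and Bcl2a1d from 88723285 to 88731914 on the minus strand, each with 2 exon blocks. Their coding sequences are 516 bases long each and differ at 12 positions in all. Bcl2a1a and Bcl2a1b differ at 11 of them (97.9% identical), Bcl2a1a and Bcl2a1d at 7 (98.6%) and Bcl2a1b and Bcl2a1d at 6 (98.8%). The first 96 coding bases hold 7 of the 12 positions and are given 5′ to 3′ on the strand of each gene, with the differing positions in capitals. They lie at chr9:88957051-88957146 (plus), chr9:89199360-89199455 (plus) and chr9:88731624-88731719 (minus).
Bcl2a1a: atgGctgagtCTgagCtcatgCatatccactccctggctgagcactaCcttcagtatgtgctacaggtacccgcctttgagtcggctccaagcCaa
Bcl2a1b: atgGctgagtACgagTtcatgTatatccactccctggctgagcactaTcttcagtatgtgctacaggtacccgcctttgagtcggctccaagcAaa
Bcl2a1d: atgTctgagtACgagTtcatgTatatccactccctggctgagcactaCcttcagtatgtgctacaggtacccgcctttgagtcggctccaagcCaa
In contrast, coding positions 95 to 311 are the same in all 3 genes, a run of 217 bases that is longer than a 150-base read. It is shown once, as at chr9:88957145-88957361 in Bcl2a1a, because a read from it cannot be placed on 1 of the 3 copies by its own sequence.
Bcl2a1a, Bcl2a1b and Bcl2a1d: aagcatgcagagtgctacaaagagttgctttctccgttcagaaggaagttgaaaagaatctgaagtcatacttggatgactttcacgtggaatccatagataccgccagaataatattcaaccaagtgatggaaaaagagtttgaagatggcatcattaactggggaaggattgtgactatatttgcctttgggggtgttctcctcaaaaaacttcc
Over the whole transcripts, 28.2% of the 150-base windows of Bcl2a1a, 41.9% of those of Bcl2a1b and 30.3% of those of Bcl2a1d were also found in a transcript of another gene. Those genes were the other copies and Gm29094, an annotated gene that shares 401 exonic bases (49.1%) with Bcl2a1b on the same strand. Among the other 7 genes that share was 0% for Bcl2l1, Mcl1, Bcl2l11 and Bbc3, 4.96% for Bcl2, 4.73% for Bax and 6.26% for Bak1. Levels of the single Bcl2a1 copies are therefore uncertain, and their summed level is given beside them.

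The promoters of the 3 copies are also close to each other, and the stretch around a short motif is shown because Bcl2a1a and Bcl2a1d were both called, in the same direction, in 2 of the 4 comparisons of groups below (WT-tFCI vs. WT-Sham and miKO-tFCI vs. WT-tFCI). The capitals mark GAGGAA, the core bound by the myeloid factor PU.1, read on either strand, where TTCCTC is the same motif on the other strand. This motif was picked after the promoters had been read. The stretches come from RefSeq (GRCm38.p6) and lie at chr9:88956770-88956861 (plus), chr9:89199079-89199170 (plus) and chr9:88731909-88731994 (minus).
Bcl2a1a: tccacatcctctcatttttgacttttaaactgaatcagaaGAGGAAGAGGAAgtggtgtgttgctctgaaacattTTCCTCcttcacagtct
Bcl2a1b: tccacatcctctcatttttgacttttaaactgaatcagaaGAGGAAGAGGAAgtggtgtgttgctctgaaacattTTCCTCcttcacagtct
Bcl2a1d: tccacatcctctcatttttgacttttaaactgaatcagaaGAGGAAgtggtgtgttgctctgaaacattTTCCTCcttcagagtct
Over the 300 bases of each promoter, the motif was matched 3 times in Bcl2a1a, 4 times in Bcl2a1b and 2 times in Bcl2a1d on both strands together. Of all 32851 promoters of this length in the table, 28.3% held the motif and 4.82% held it at least 2 times. A match describes the letters and not a bound site. The stretch of Bcl2a1b is the same as that of Bcl2a1a, and Bcl2a1b was called in neither WT-tFCI vs. WT-Sham nor miKO-tFCI vs. WT-tFCI. Bcl2a1d, with the fewest matches, changed most of the copies. Whether the motif bears on these levels was not tested.

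Each library held 7697864 to 9452222 counts on genes. Hdac3, the targeted gene, was lower in the miKO libraries of either surgery, with a log2 fold change of -0.81 without stroke (adjusted p = 0.00281) and of -0.71 with stroke (adjusted p = 0.0127). Here and below, the adjusted p values are those of the edgeR quasi-likelihood test, adjusted after Benjamini and Hochberg over all 16451 genes tested, and a gene was called at an adjusted p under 0.05. Of all pairs of replicates, miKO-Sham 1 and 2 had the closest counts, with a chi-square per degree of freedom of 2.82 against 3.65 to 76.6 for the others, although the labels put them in different batches. The names under which their counts were deposited are nearly the same, and whether they are separate samples cannot be settled here. They differed by more than sampling noise and were kept as 2 libraries. All 11 microglial markers were detected in every group, and their summed level per library was 29953 to 40047 CPM in WT-Sham, 28234 to 33878 in miKO-Sham, 21252 to 23660 in WT-tFCI and 10693 to 20885 in miKO-tFCI. CPM are counts divided by the size of each library, scaled by its TMM factor. The microglial markers include Cx3cr1, of which the miKO mice lack 1 allele. Cx3cr1 was at 3291 to 4373 CPM in WT-Sham, 1052 to 1446 in miKO-Sham, 1450 to 1579 in WT-tFCI and 291 to 544 in miKO-tFCI. The summed level of 12 neutrophil markers was 53.8 to 895 CPM in WT-Sham, 366 to 404 in miKO-Sham, 184 to 239 in WT-tFCI and 899 to 1122 in miKO-tFCI, and no marker of this list was at 0 in every library of a group. The sum of 9 monocyte and macrophage markers was 12.7 to 93.6, 58.0 to 115, 364 to 655 and 431 to 953 CPM in the same order, and of that list S100a4 was at 0 in miKO-Sham. In such bulk libraries, fewer cells of a type and less RNA per cell cannot be told apart.

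Per length of exon, Mcl1 was the most abundant of the 10 genes in every group, at 188 ± 21.1 CPM per kb in WT-Sham, 243 ± 21.7 in miKO-Sham, 245 ± 40.5 in WT-tFCI and 212 ± 50.9 in miKO-tFCI (mean ± SD, n = 3, as for the levels below). In WT-Sham it was followed by Bbc3 (43.4 ± 4.66 CPM per kb), Bax (30.3 ± 6.29), Bcl2l1 (24.4 ± 0.937), Bcl2a1a (20.6 ± 1.93), Bcl2a1b (14.0 ± 3.15), Bcl2a1d (6.41 ± 1.43), Bcl2l11 (4.70 ± 0.320), Bak1 (1.83 ± 0.885) and Bcl2 (1.08 ± 0.183), and no neighbours in this order overlapped between libraries. The order differed in the other groups. In miKO-Sham, Bax (52.3 ± 2.94 CPM per kb) and Bcl2l1 (42.9 ± 4.20) stood above Bbc3 (33.3 ± 4.05), and Bbc3, Bcl2a1b, Bcl2a1a and Bcl2a1d each overlapped with the next. In WT-tFCI, Bcl2a1d (55.9 ± 5.78 CPM per kb) and Bcl2a1a (53.5 ± 6.52), which overlapped with each other, ranked directly below Mcl1. In miKO-tFCI, Bbc3 (14.2 ± 4.24 CPM per kb) ranked seventh, overlapping with Bcl2a1b, below Bax (49.3 ± 5.01) and Bcl2l1 (36.8 ± 7.96). Bcl2 and Bak1 were the least abundant in all 4 groups, and in miKO-tFCI they overlapped. These levels are divided by the length of all annotated exons of a gene together, which includes exons that a given cell may not use.

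**Figure D1:**
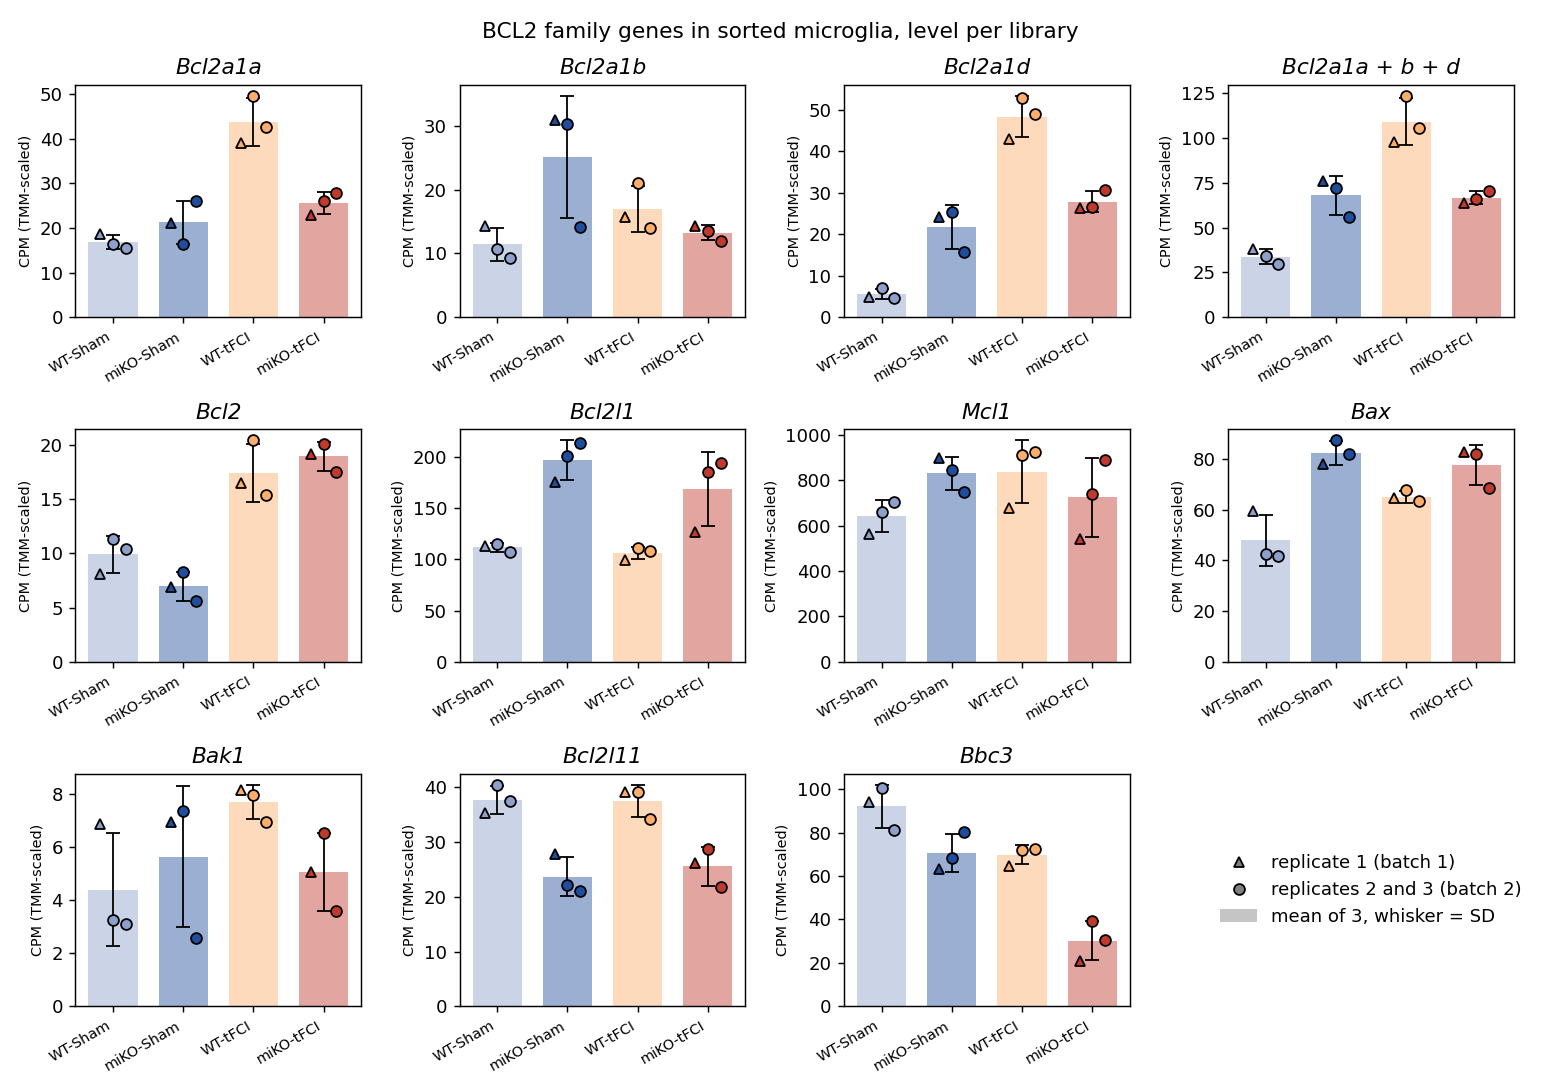
Level of each gene in every library, in CPM after TMM scaling, with each panel starting at 0; bars are means of 3 libraries, whiskers are SD, triangles are replicate 1 (batch 1) and circles replicates 2 and 3 (batch 2). Summed Bcl2a1 was highest in WT-tFCI (97.9 to 124 CPM) and lowest in WT-Sham (29.6 to 37.9), and Bbc3 was lowest in miKO-tFCI (21.1 to 39.1).

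Summed over its 3 copies, Bcl2a1 was lowest in WT-Sham and highest in WT-tFCI. Summed Bcl2a1 was 37.9, 33.9 and 29.6 CPM in WT-Sham replicates 1 to 3, 76.2, 72.1 and 55.8 in miKO-Sham, 97.9, 124 and 106 in WT-tFCI and 63.5, 66.1 and 70.4 in miKO-tFCI. Every WT-tFCI library lay above all others, every WT-Sham library lay below all others, and the 2 miKO groups overlapped. The sum rose 3.23-fold with stroke in WT mice (log2 fold change 1.69, standard error 0.15, adjusted p = 1.10e-06). In miKO mice the log2 fold change with stroke was -0.03 (95% confidence interval -0.35 to 0.29, adjusted p = 0.901). Before stroke the sum was 2.01-fold higher in miKO mice (miKO-Sham vs. WT-Sham, log2 fold change 1.01, adjusted p = 2.78e-04). After stroke it was lower in miKO mice (miKO-tFCI vs. WT-tFCI, log2 fold change -0.71, adjusted p = 0.00797), a call that was lost without WT-tFCI replicate 2 (-0.60, adjusted p = 0.0635). The change with stroke differed between genotypes by -1.72 on the log2 scale (interaction of genotype and surgery, standard error 0.21, adjusted p = 4.51e-04), with -1.63 within batch 1 and -1.74 within batch 2.

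Among the copies, Bcl2a1d changed most. It was at 4.93, 6.95 and 4.72 CPM in WT-Sham, 24.2, 25.2 and 15.6 in miKO-Sham, 43.0, 52.9 and 49.0 in WT-tFCI and 26.3, 26.5 and 30.6 in miKO-tFCI. None of the 4 groups overlapped with another. It rose 8.71-fold with stroke in WT mice (log2 fold change 3.12, standard error 0.22, adjusted p = 7.76e-08) and was 3.92-fold higher in miKO-Sham vs. WT-Sham (1.97, standard error 0.22, adjusted p = 1.67e-05). With stroke in miKO mice its log2 fold change was 0.36 (95% confidence interval -0.06 to 0.78, adjusted p = 0.155). It was lower in miKO-tFCI than in WT-tFCI (log2 fold change -0.79, standard error 0.19, adjusted p = 0.0168), a call that was lost without WT-tFCI replicate 2 or 3 or miKO-tFCI replicate 2 (adjusted p = 0.0884, 0.0722 and 0.0568).

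Bcl2a1a was at 18.6, 16.4 and 15.6 CPM in WT-Sham, 21.1, 16.5 and 26.1 in miKO-Sham, 39.1, 49.6 and 42.6 in WT-tFCI and 22.9, 26.0 and 27.8 in miKO-tFCI. The WT-tFCI libraries stood above all others, whereas the sham groups overlapped. It rose 2.59-fold with stroke in WT mice (log2 fold change 1.37, standard error 0.18, adjusted p = 3.70e-05) and was lower in miKO-tFCI vs. WT-tFCI (log2 fold change -0.78, standard error 0.18, adjusted p = 0.0125). The latter call was lost without WT-tFCI replicate 2 or 3 (adjusted p = 0.0832 and 0.0518). Its log2 fold change was 0.26 in miKO-tFCI vs. miKO-Sham (adjusted p = 0.256) and 0.33 in miKO-Sham vs. WT-Sham (adjusted p = 0.236).

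Bcl2a1b had another profile. It was at 14.3, 10.6 and 9.34 CPM in WT-Sham, 31.0, 30.4 and 14.1 in miKO-Sham, 15.8, 21.01 and 14.0 in WT-tFCI and 14.2, 13.6 and 12.0 in miKO-tFCI. The high values were those of miKO-Sham replicates 1 and 2, the closest pair, while replicate 3 lay within the range of WT-tFCI and just below WT-Sham replicate 1. Bcl2a1b was called higher in miKO-Sham vs. WT-Sham (log2 fold change 1.14, standard error 0.26, adjusted p = 0.00730) and lower in miKO-tFCI vs. miKO-Sham (-0.91, standard error 0.26, adjusted p = 0.0122). The call between the sham groups was kept in all 21 alternatives (highest adjusted p = 0.0458), and that between the miKO groups was lost without miKO-Sham replicate 1 or 2 and in batch 2 alone (adjusted p = 0.0584, 0.073 and 0.0723). Its log2 fold change with stroke in WT mice was 0.59 (adjusted p = 0.0919), which was called without miKO-Sham replicate 3 and with only the groups compared (adjusted p = 0.0375 and 0.0445), and that in miKO-tFCI vs. WT-tFCI was -0.36 (adjusted p = 0.409).

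The shares of the 3 copies in their joint counts varied between groups and were not tested. Of 289 to 315 counts per WT-Sham library, 13.02% to 20.5% were on Bcl2a1d and 31.4% to 37.8% on Bcl2a1b. Of 818 to 1070 counts per WT-tFCI library, 42.8% to 46.4% were on Bcl2a1d and 13.3% to 17.0% on Bcl2a1b. The libraries of miKO-tFCI, with 526 to 615 counts, lay close to those of WT-tFCI (40.1% to 43.5% on Bcl2a1d). In miKO-Sham, replicates 1 and 2 had 27.7% and 22.9% of their counts on Bcl2a1a, with 95% Wilson intervals of 24.1% to 31.6% and 19.5% to 26.7%, whereas replicate 3 had 46.8% (42.2% to 51.5%). These intervals cover counting error only, since the counts are of amplified reads without molecular identifiers.

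**Figure D2:**
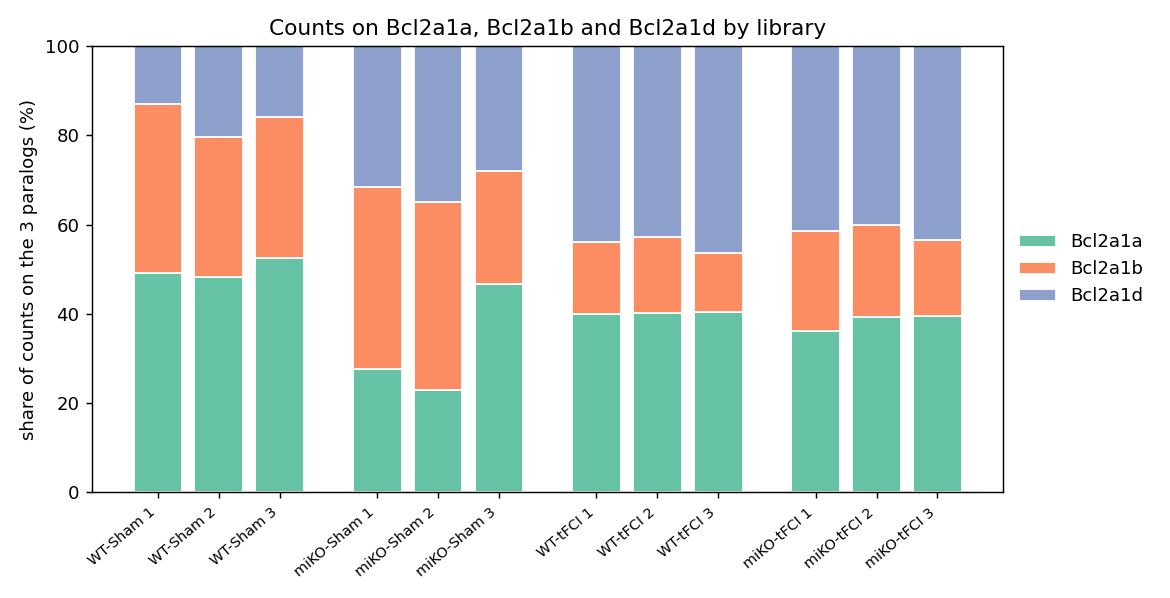
Share of the counts of Bcl2a1a, Bcl2a1b and Bcl2a1d together that fell on each of them, in percent, with a bar per library. Bcl2a1d holds 13.02% to 20.5% in WT-Sham and 42.8% to 46.4% in WT-tFCI, and miKO-Sham replicate 3 differs from replicates 1 and 2 in its share of Bcl2a1a.

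Markers of other myeloid cells moved with some of these values. Of 11 neutrophil markers tested, 8 were called higher and 0 lower in miKO-tFCI vs. WT-tFCI, in which Bcl2a1a and Bcl2a1d were called lower, so that the sums of the markers and of Bcl2a1 went in opposite directions there. With stroke in WT mice edgeR and DESeq2 each called 0 of these 11 markers, and 2 had an unadjusted p under 0.05. In miKO-tFCI vs. miKO-Sham, in which summed Bcl2a1 was at -0.03, 5 of the 11 were called higher and 0 lower. Of 8 monocyte and macrophage markers tested, 4 were called higher with stroke in WT mice and 6 in miKO mice, and 0 lower in either. In miKO-tFCI vs. WT-tFCI 3 of these 8 were called higher and 0 lower. Among all genes tested, 23.5% were called higher with stroke in WT mice, 24.5% in miKO mice and 4.5% in miKO-tFCI vs. WT-tFCI. WT-Sham replicate 1 held 895 CPM of neutrophil markers against 81.9 and 53.8 in replicates 2 and 3, and without this library the rise with stroke in WT mice was 3.04 on the log2 scale for Bcl2a1d and 1.48 for Bcl2a1a (adjusted p = 9.46e-07 and 1.13e-04). The part of these cells in the Bcl2a1 levels was not tested.

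Bcl2, the founding survival gene of the family, was higher after stroke in both genotypes. It was at 8.05, 11.3 and 10.4 CPM in WT-Sham, 6.94, 8.32 and 5.64 in miKO-Sham, 16.5, 20.4 and 15.4 in WT-tFCI and 19.2, 20.1 and 17.5 in miKO-tFCI. Every library after stroke lay above every sham library. Bcl2 rose 1.76-fold in WT mice (log2 fold change 0.82, standard error 0.21, adjusted p = 0.00645) and 2.72-fold in miKO mice (1.45, standard error 0.22, adjusted p = 1.15e-04). The first call was lost without WT-tFCI replicate 2 (adjusted p = 0.058). The changes in the 2 genotypes differed by 0.63 on the log2 scale, with an adjusted p of 0.292 for the interaction. Between genotypes the log2 fold change was -0.51 before stroke (adjusted p = 0.133) and 0.12 after it (95% confidence interval -0.31 to 0.56, adjusted p = 0.745). Markers of other cell types were also called higher with stroke. In WT and miKO mice these were 5 and 7 of 7 endothelial markers, 3 and 5 of 6 astrocyte markers, 2 and 3 of 5 dendritic cell markers tested and 1 and 5 of 6 markers of border-associated macrophages. Of the astrocyte markers 1 was called lower in each genotype, and of the endothelial, dendritic cell and border-associated macrophage markers 0 were. Among all genes tested, 23.5% were called higher with stroke in WT mice and 24.5% in miKO mice. The summed endothelial markers were at 22.3 to 30.7 CPM in WT-Sham, 12.3 to 18.7 in miKO-Sham, 62.6 to 176 in WT-tFCI and 107 to 292 in miKO-tFCI. No marker of these 4 lists was at 0 in every library of a group, and the part of these cells in the level of Bcl2 was not tested.

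Bcl2l1 was higher in miKO mice than in WT mice, before and after stroke. Its level was 113, 115 and 107 CPM in WT-Sham, 176, 201 and 214 in miKO-Sham, 99.7, 111 and 109 in WT-tFCI and 127, 186 and 194 in miKO-tFCI. Every miKO library lay above every WT library, with miKO-tFCI replicate 1 the lowest of them. Bcl2l1 was 1.75-fold higher in miKO-Sham vs. WT-Sham (log2 fold change 0.81, standard error 0.14, adjusted p = 6.51e-04) and 1.57-fold higher in miKO-tFCI vs. WT-tFCI (log2 fold change 0.65, standard error 0.14, adjusted p = 0.00754). Within batch 1 and batch 2 the latter difference was 0.35 and 0.79, and without WT-tFCI replicate 3 its adjusted p was 0.0528. With stroke its log2 fold change was -0.08 in WT mice (95% confidence interval -0.37 to 0.21) and -0.23 in miKO mice (-0.52 to 0.05), and neither was called (adjusted p = 0.677 and 0.178).

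Mcl1, which encodes a short-lived survival protein, was called by edgeR in none of the 4 comparisons of groups in the fit of all libraries. Its unadjusted p was under 0.05 for stroke in WT mice and for genotype in sham mice, and DESeq2 called it higher in both (adjusted p = 0.0310 and 0.0499). For stroke in WT mice edgeR also called it with at least 10 counts in every library, in batch 2 alone, without miKO-Sham replicate 1 and with only the groups compared (adjusted p = 0.0485, 0.0267, 0.0443 and 0.00362), and for genotype in sham mice without miKO-Sham replicate 3 (adjusted p = 0.0483). Its level was 563, 660 and 704 CPM in WT-Sham, 897, 845 and 751 in miKO-Sham, 678, 911 and 925 in WT-tFCI and 543, 741 and 890 in miKO-tFCI. Replicate 1 was the lowest library in WT-Sham, WT-tFCI and miKO-tFCI and the highest in miKO-Sham. The miKO-Sham libraries lay above those of WT-Sham, and the other pairs of groups overlapped. The log2 fold change was 0.38 in WT-tFCI vs. WT-Sham (adjusted p = 0.0761), 0.39 in miKO-Sham vs. WT-Sham (adjusted p = 0.11), -0.23 in miKO-tFCI vs. miKO-Sham (adjusted p = 0.271) and -0.21 in miKO-tFCI vs. WT-tFCI (adjusted p = 0.422).

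Of the pore-forming genes, Bax was called higher in miKO-Sham and in WT-tFCI than in WT-Sham. It was at 59.3, 42.6 and 41.7 CPM in WT-Sham, 78.0, 87.3 and 82.0 in miKO-Sham, 64.4, 67.7 and 63.2 in WT-tFCI and 82.6, 81.9 and 68.6 in miKO-tFCI. WT-Sham replicate 1 stood above the other 2 of its group. This library had the most neutrophil marker RNA of its group and is also its only library of batch 1. These traits cannot be told apart, and the part of either in the level of Bax was not tested. Bax was 1.74-fold higher in miKO-Sham vs. WT-Sham (log2 fold change 0.80, standard error 0.14, adjusted p = 0.00113) and 1.37-fold higher in WT-tFCI vs. WT-Sham (0.46, standard error 0.14, adjusted p = 0.0204). The latter difference was 0.12 within batch 1 and 0.63 within batch 2, and its call was lost without WT-Sham replicate 2 or 3 or WT-tFCI replicate 2 or 3 (adjusted p = 0.144, 0.15, 0.137 and 0.0918). The log2 fold change of Bax was -0.09 in miKO-tFCI vs. miKO-Sham (adjusted p = 0.638) and 0.25 in miKO-tFCI vs. WT-tFCI (adjusted p = 0.277). Exons of Bax share 192 bases (12.2%) with Gm45808 on the same strand.

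Bak1 was the least precisely measured gene, at 6.85, 3.25 and 3.08 CPM in WT-Sham, 6.94, 7.35 and 2.56 in miKO-Sham, 8.14, 7.96 and 6.94 in WT-tFCI and 5.06, 6.54 and 3.58 in miKO-tFCI. The WT-tFCI libraries lay above those of WT-Sham and miKO-tFCI, and the other groups overlapped. Its log2 fold changes were 0.87 (standard error 0.39) in WT-tFCI vs. WT-Sham, -0.12 (0.40) in miKO-tFCI vs. miKO-Sham, 0.39 (0.40) in miKO-Sham vs. WT-Sham and -0.60 (0.39) in miKO-tFCI vs. WT-tFCI. None was called in the fit of all libraries by edgeR (adjusted p = 0.0937, 0.824, 0.554 and 0.351) or by DESeq2. The first had an unadjusted p under 0.05 and was called by edgeR with only the groups compared in the fit (0.89, adjusted p = 0.0312). Up to 18.2% of the exonic bases of Bak1 lie opposite Ggnbp1, and whether the reads were counted by strand is not given in the sources used here.

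Bcl2l11, the gene of the BH3-only protein BIM, was lower in the miKO groups. Its level was 35.3, 40.4 and 37.4 CPM in WT-Sham, 27.8, 22.2 and 21.1 in miKO-Sham, 39.1, 39.2 and 34.2 in WT-tFCI and 26.2, 28.7 and 21.8 in miKO-tFCI. Every miKO library lay below every WT library, the reverse of Bcl2l1. Bcl2l11 was lower in miKO-Sham vs. WT-Sham (log2 fold change -0.68, standard error 0.16, adjusted p = 0.00649), a call kept in all 21 alternatives, and in miKO-tFCI vs. WT-tFCI (log2 fold change -0.56, standard error 0.15, adjusted p = 0.0336). The call after stroke was lost without a batch term, in batch 2 alone, and without any of the WT-tFCI replicates or without miKO-tFCI replicate 1 or 3, with adjusted p values of up to 0.154. With stroke the log2 fold change was -0.01 in WT mice (95% confidence interval -0.33 to 0.31) and 0.11 in miKO mice (-0.22 to 0.45), and neither was called (adjusted p = 0.964 and 0.594).

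Bbc3, the gene of PUMA, was lowest in miKO-tFCI. It was at 94.2, 101 and 81.4 CPM in WT-Sham, 63.4, 68.4 and 80.2 in miKO-Sham, 64.8, 72.3 and 72.6 in WT-tFCI and 21.1, 39.1 and 30.5 in miKO-tFCI. The miKO-tFCI libraries lay below all others, the WT-Sham libraries lay above all others, and miKO-Sham and WT-tFCI overlapped. Bbc3 fell in miKO-tFCI vs. miKO-Sham to 0.423-fold (log2 fold change -1.24, standard error 0.17, adjusted p = 5.12e-05) and was 0.427-fold in miKO-tFCI vs. WT-tFCI (log2 fold change -1.23, standard error 0.17, adjusted p = 3.83e-04). Both calls were kept in all 21 alternatives, and within batch 1 and batch 2 the difference between the stroke groups was -1.61 and -1.06. With stroke in WT mice and with genotype in sham mice its log2 fold changes were -0.41 and -0.39, and neither was called (adjusted p = 0.0604 and 0.114). The first was called lower in 6 of 21 alternatives, which were at least 10 counts in every library, only the groups compared, and leaving out WT-Sham replicate 3 or any of the miKO-tFCI replicates (adjusted p = 0.0150 to 0.0495). The interaction was -0.84 (standard error 0.23, adjusted p = 0.063), which DESeq2 called (adjusted p = 0.0234), as did edgeR without a filter on low counts and without WT-Sham replicate 1 or miKO-tFCI replicate 2 (adjusted p = 0.0122, 0.0299 and 0.0227). The summed microglial markers were also lowest in miKO-tFCI, where 5 of 11 were called lower against WT-tFCI and 0 higher. Among all genes tested, 5.4% were called lower and 4.5% higher in this comparison. The markers include Cx3cr1, of which the miKO mice lack 1 allele, and their part in the level of Bbc3 was not tested.

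Set against all genes, the calls among the 10 differed by comparison. In WT-tFCI vs. WT-Sham, 4 of 10 were called (Bcl2a1a, Bcl2a1d, Bcl2 and Bax), all of them higher, while 38.9% of all genes tested were called, 23.5% higher and 15.4% lower, and the count of members was 2 without WT-tFCI replicate 2 and 8 with only the groups compared in the fit, where 6909 of 14771 genes were called. In miKO-tFCI vs. miKO-Sham, 3 of 10 were called (Bcl2 higher, Bcl2a1b and Bbc3 lower) against 42.3% of all genes (24.5% higher and 17.7% lower). In the fit of all libraries both shares are near those of all genes. In miKO-Sham vs. WT-Sham, 5 of 10 were called (Bcl2a1b, Bcl2a1d, Bcl2l1 and Bax higher, Bcl2l11 lower) against 18.1% of all genes (9.94% higher and 8.12% lower). In miKO-tFCI vs. WT-tFCI, 5 of 10 were called (Bcl2l1 higher, Bcl2a1a, Bcl2a1d, Bcl2l11 and Bbc3 lower) against 9.9% (4.5% higher and 5.4% lower), and this count was 2 without WT-tFCI replicate 2 and 1 without WT-tFCI replicate 3. In the interaction the 3 Bcl2a1 copies were called, all lower, against 3.82% of all genes (1.25% higher and 2.57% lower). They share sequence and are not 3 independent genes. Of these copies only Bcl2a1d was called in all 20 alternatives, and the count of members was 1 without WT-Sham replicate 2 or 3, miKO-Sham replicate 1, WT-tFCI replicate 2 or 3 or miKO-tFCI replicate 1. With miKO-Sham replicates 1 and 2 summed to 1 library, an alternative added after seeing the data, the members called numbered 4, 3, 5, 5 and 2 in these 5 comparisons. The median log2 fold change of the 10 genes was 0.52, -0.11, 0.39, -0.46 and -0.72 in the same order, and that of all genes tested was 0.02, 0.03, 0.04, 0.04 and -0.02. The comparisons share groups and are not independent of each other.

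**Figure D3:**
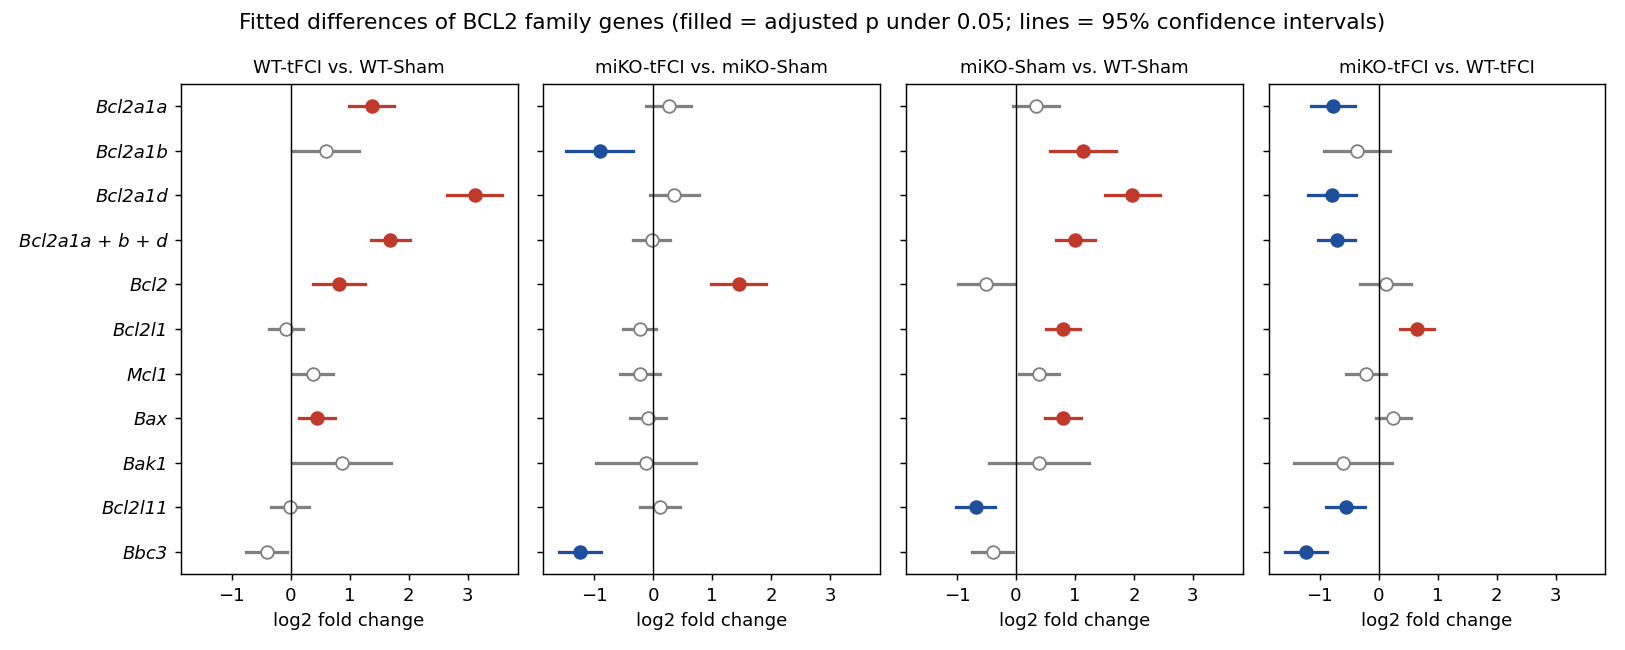
Log2 fold change of each gene in the 4 comparisons of groups from edgeR, with lines for 95% confidence intervals, filled red or blue points for genes called higher or lower at an adjusted p under 0.05, and open grey points for the others. Bcl2a1d in WT-tFCI vs. WT-Sham (3.12) is the largest difference, and Bbc3 is lower by a like amount in both comparisons with miKO-tFCI (-1.24 and -1.23).

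Ratios within a library do not depend on the scaling between libraries, and 4 ratios of a survival gene to a death gene were compared between groups by exact two-sided permutation tests. With 3 libraries against 3 the smallest possible p is 0.1, so that no ratio could pass the threshold, and over the 16 tests the smallest Benjamini-Hochberg adjusted p was 0.267. The log2 ratio of counts of Bcl2l1 to Bcl2l11 was 1.57 ± 0.0978 in WT-Sham, 3.06 ± 0.352 in miKO-Sham, 1.50 ± 0.158 in WT-tFCI and 2.71 ± 0.440 in miKO-tFCI. It differed by 1.49 between the sham groups and by 1.20 between the stroke groups, and all miKO libraries lay above all WT libraries (exact permutation p = 0.1 in each). The log2 ratio of Bcl2 to Bax was -2.27 ± 0.533 in WT-Sham, -3.58 ± 0.249 in miKO-Sham, -1.91 ± 0.163 in WT-tFCI and -2.03 ± 0.0692 in miKO-tFCI. Here the miKO-Sham libraries lay below those of every other group, with a difference of 1.55 in miKO-tFCI vs. miKO-Sham and of -1.31 in miKO-Sham vs. WT-Sham (exact permutation p = 0.1 in each). The log2 ratio of Bcl2l1 to Bax was lower in all WT-tFCI libraries than in all WT-Sham libraries (difference -0.54), and the log2 ratio of Mcl1 to Bcl2l11 was higher in all miKO-Sham than in all WT-Sham libraries (difference 1.05, exact permutation p = 0.1 in each). Ratios of counts of different genes carry the length of each gene and are compared between groups only.

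**Figure D4:**
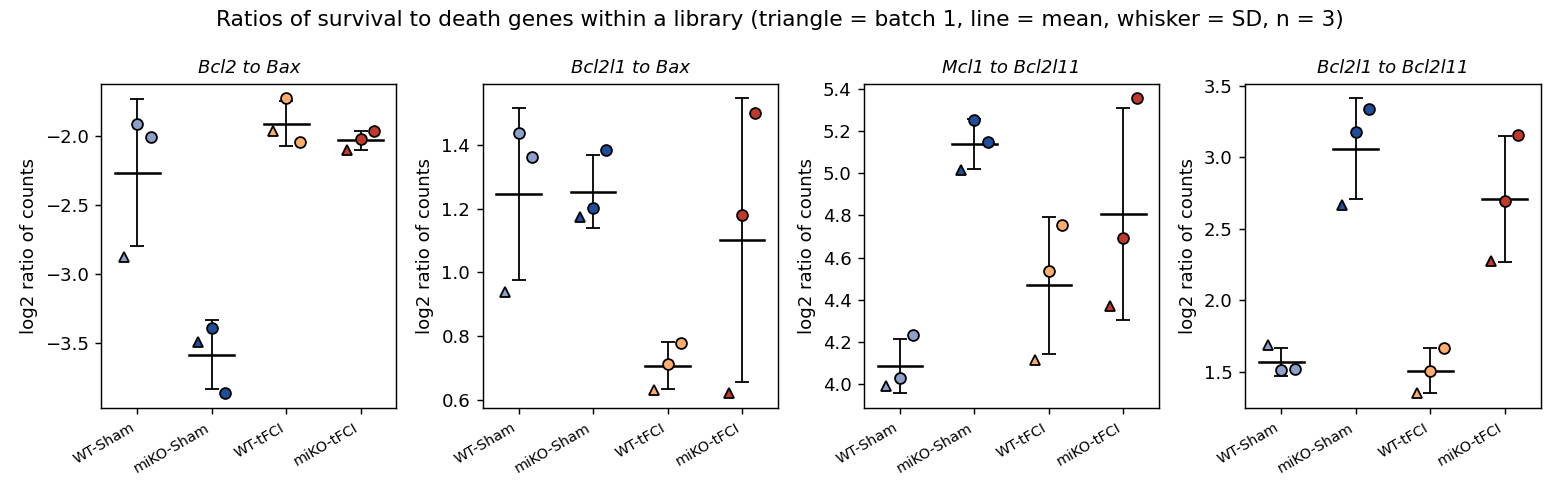
Log2 ratio of the counts of a survival gene to those of a death gene in each library, with triangles for replicate 1 (batch 1), circles for replicates 2 and 3 (batch 2), lines for means and whiskers for SD (n = 3); the axes do not start at 0. Bcl2l1 to Bcl2l11 is at 1.57 and 1.50 in the WT groups and at 3.06 and 2.71 in the miKO groups.

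Other genes of the pathway were read from 6 lists in the same fit, and their counts stand beside the shares of all genes called, which were 38.9% with stroke in WT mice, 42.3% with stroke in miKO mice, 18.1% between the sham groups and 9.9% between the stroke groups. Of 16 further BCL2 family genes 11 were tested, and Bcl2a1c, Bcl2l10, Bcl2l14, Bcl2l15 and Hrk were too low. In WT-tFCI vs. WT-Sham 4 of the 11 rose, which were Bok, an effector related to Bax and Bak1 (log2 fold change 2.68), Bcl2l2, which encodes the survival protein BCL-w (1.44), and the BH3-only genes Pmaip1 (0.81) and Bad (0.47), and 2 fell, Bid (-0.83) and Bmf (-0.82). In miKO-tFCI vs. miKO-Sham Bok (3.49) and Bik (2.72) rose while Bmf (-1.32) and Bid (-0.39) fell. In miKO-Sham vs. WT-Sham Bcl2l2 (1.42) and Bad (0.97) were higher and Bik (-2.49) and Bid (-0.62) lower. Some of these genes were low, so that their fold changes rest on few counts. Mean levels in WT-Sham and miKO-Sham were 0.57 and 0.51 CPM for Bok, 2.09 and 0.35 for Bik and 2.30 and 5.64 for Bcl2l2. In miKO-tFCI vs. WT-tFCI Bmf (-0.87, adjusted p = 0.0292) was the 1 gene called, lower like Bcl2l11 and Bbc3. The median log2 fold change of the list was 0.22, 0.20, 0.00496 and 0.05 in these comparisons.

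Downstream of the mitochondria, 6 of 14 apoptosome and caspase genes were called in WT-tFCI vs. WT-Sham, a share near the 38.9% of all genes. Cycs, which encodes cytochrome c (log2 fold change 1.30), and Apaf1, the scaffold of the apoptosome (0.99), rose. Dffb (-0.81), Htra2 (-0.60), Casp8 (-0.47) and Casp9 (-0.45) fell. In miKO-tFCI vs. miKO-Sham Cycs rose (0.86) and Dffb fell (-0.90). Between genotypes edgeR and DESeq2 each called 0 of 14, and an unadjusted p under 0.05 was found for 2 before stroke and 0 after it.

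Of 6 inhibitors of caspases, Birc5 (survivin, which also acts in cell division) rose by 5.52 on the log2 scale in WT-tFCI vs. WT-Sham and by 4.17 in miKO-tFCI vs. miKO-Sham, and was lower in miKO-tFCI vs. WT-tFCI (-0.75, adjusted p = 0.0062). A list of 7 other proliferation genes moved with it, at 16.1 to 18.98 CPM in WT-Sham, 27.3 to 30.1 in miKO-Sham, 432 to 543 in WT-tFCI and 225 to 286 in miKO-tFCI. Birc2 fell in WT mice with stroke (-0.50), Cflar (-0.90), Birc3 (-0.46) and Xiap (-0.45) fell in miKO mice with stroke, and Birc3 was also lower in miKO-tFCI vs. WT-tFCI (-0.61, adjusted p = 0.0161). Birc3 and Cflar are known as targets of NF-kappaB, as are the Bcl2a1 genes. Summed Bcl2a1 was at -0.03 in miKO mice with stroke and at -0.71 in miKO-tFCI vs. WT-tFCI. In the latter comparison edgeR did not call Cflar, which had a mean of 129 CPM in miKO-tFCI and of 175 in WT-tFCI. Of the 6 inhibitors 4 had an unadjusted p under 0.05 there, and DESeq2 called 4. The part of NF-kappaB in these levels was not tested.

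Of the death receptor genes 7 of 8 were tested. Fas rose with stroke in WT mice (log2 fold change 2.02) and in miKO mice (3.03), in which Tnfsf10 also rose (1.90) and Tnfrsf1a fell (-0.40). Both rising genes were low, with means of 1.06 CPM for Fas in either sham group. Those of Tnfsf10 were 3.65 CPM in WT-Sham and 0.67 in miKO-Sham. Tnfsf10 was lower in miKO-Sham vs. WT-Sham (-2.41), and after stroke edgeR and DESeq2 each called 0 of 7 between genotypes, with 0 at an unadjusted p under 0.05. Of p53 and its targets 11 of 12 were tested, and in WT-tFCI vs. WT-Sham 5 rose, led by Phlda3 (4.65), Perp (2.35) and the cell cycle inhibitor Cdkn1a (1.83), and 1 fell (Sesn1, -0.90). Phlda3 and Perp were low in WT-Sham, with means of 0.41 and 1.75 CPM against 101 CPM for Cdkn1a. The standard errors of these 3 changes were 0.63, 0.50 and 0.15. In miKO-tFCI vs. miKO-Sham 4 rose, led by Perp (2.99), Phlda3 (2.72) and Cdkn1a (1.02), and Sesn1 (-0.53) and Trp53 (-0.49) fell. Bbc3, itself known as a p53 target, fell in the same comparison. In miKO-Sham vs. WT-Sham Phlda3 (2.89) and Cdkn1a (0.87) were higher, and after stroke edgeR and DESeq2 each called 0 of 11 between genotypes, with 4 at an unadjusted p under 0.05.

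Of 12 transcription factors known to act on BCL2 family genes, E2f1 rose with stroke (log2 fold change 4.46 in WT and 3.26 in miKO mice). Jun (-1.82), Ddit3 (-0.72), Foxo3 (-0.69) and Foxo1 (-0.61) fell in WT mice, and 7 fell in miKO mice, led by Jun (-1.84), Myc (-1.12) and Nfkb1 (-0.93). In miKO-Sham vs. WT-Sham E2f1 (0.88) and Myc (0.56) were higher and Jun (-0.96), Foxo1 (-0.60) and Rel (-0.54) lower. In miKO-tFCI vs. WT-tFCI Jun (-0.97, adjusted p = 0.00137) and the NF-kappaB subunit genes Nfkb1 (-0.72, adjusted p = 0.00518) and Rel (-0.66, adjusted p = 0.011) were lower. Spi1, the gene of PU.1, was among the 7 that fell in miKO mice with stroke (-0.70), in which summed Bcl2a1 was at -0.03. In the other comparisons of groups Spi1 was not called. It was at -0.15 in WT-tFCI vs. WT-Sham (adjusted p = 0.373), in which summed Bcl2a1 rose. Mean levels of Spi1 were 410 CPM in WT-Sham, 458 in miKO-Sham, 370 in WT-tFCI and 282 in miKO-tFCI. Between genotypes these means and summed Bcl2a1 went in the same direction, higher in miKO-Sham than in WT-Sham and lower in miKO-tFCI than in WT-tFCI. In miKO-tFCI vs. WT-tFCI 7 of the 12 factors had an unadjusted p under 0.05, and DESeq2 called 4. A link of Spi1 to the Bcl2a1 levels was not tested.

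The genes whose profiles were most like those of the members were sought by the root mean square difference of batch-adjusted, centred log2 CPM over the 12 libraries, among all genes tested. This was done for summed Bcl2a1, Bcl2 and Bbc3, whose group means spanned more than 1 on the log2 scale. Nearest to summed Bcl2a1 was Osm, which encodes the cytokine oncostatin M (difference 0.101), with group means of 100 CPM in WT-Sham, 188 in miKO-Sham, 321 in WT-tFCI and 177 in miKO-tFCI, followed by Rab20 and Rasgef1b (0.229 each). Nearest to Bcl2 were Aig1 (0.170), Fasn (0.172), which encodes fatty acid synthase, and Borcs8 (0.181). Nearest to Bbc3 were Sall3 (0.151), with group means of 152, 92.8, 91.9 and 41.4 CPM in the same order, Traf3ip3 (0.165) and Gm44545 (0.167). The likeness is a description of these libraries.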

How the data were processed

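The deposited values are counts per gene, which the authors made from trimmed, aligned reads and did not normalize, for each of the 12 libraries. The submitters' processing notes name FastQC 0.11.9, Trim Galore, HISAT2 2.2.1, SAMtools, HTSeq 1.99.2 and GRCm38.p6. How reads with several equal alignments were counted and whether strand was used are not given in the sources used here. Either would bear on the Bcl2a1 copies and on overlapping genes, since 3.59% to 5.25% of counted reads were not aligned uniquely and 0.897% to 1.90% were ambiguous. Rows that name no gene were left out, and genes held 30.7% to 38.5% of the counted reads. Over all libraries together Bak1 had the fewest counts of the members, with 20 to 69 per library.

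GENCODE M21 named 55141 of 55401 identifiers, and all 170 genes of the lists used were found. The analysis used edgeR 4.0.16 under R 4.3.3: filterByExpr by group (16451 genes), TMM (factors 0.864 to 1.11) and 1 quasi-likelihood fit of group and batch over all 12 libraries (biological coefficient of variation 0.199). The summed Bcl2a1 level replaced the 3 rows in a second fit. Profiles used log2 CPM with a prior count of 2. p values measure the spread between pools of hemispheres. The steps were tested on simulated data. DESeq2 1.42.0, other scaling and filters, other terms and samples, and leaving out each library were alternatives. The members and lists were chosen with earlier results of these data known. Named genes were the 10 members, Hdac3, up to 3 called genes with the largest change per list and comparison (all where 5 or fewer were counted, and others where a count needed them), markers that moved with a member and the 3 most alike genes. Protein sequences were not used here. Spi1 was named in addition, after its value was seen. A result of the apoptosome and caspase list is not reported here.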

Additional observations from a re-analysis of the deposited data

Results flagged for a closer look

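In 4 results the change with stroke differed between WT and miKO mice by a test of the difference itself, the interaction of genotype and surgery. The interaction was -1.72 on the log2 scale for summed Bcl2a1, -2.76 for Bcl2a1d, -1.11 for Bcl2a1a and -1.50 for Bcl2a1b (adjusted p from edgeR = 4.51e-04, 1.40e-04, 0.0241 and 0.0371). For summed Bcl2a1 and Bcl2a1d the call was kept in all 20 alternatives, with the highest adjusted p at 0.00324 and 0.0013. For Bcl2a1a it was lost without WT-Sham replicate 2 or 3, miKO-Sham replicate 1, WT-tFCI replicate 2 or 3 or miKO-tFCI replicate 1 (adjusted p up to 0.101). For Bcl2a1b it was lost in 12 of 20 alternatives, among them those without miKO-Sham replicate 1 or 2 and that with these 2 summed to 1 library (adjusted p up to 0.138). The 4 results share reads and are not independent. Groups of 3 libraries were not searched for outlying values.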

How the results depend on the processing

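Of 1365 values refitted or recomputed under an alternative, 1276 were classed as unchanged, and the cause of the other changes was not tested. For fold changes this class means the same direction and the same side of the threshold. For ratios, which were not set against a threshold here, it means the same direction. Counts of members that moved little were also classed as unchanged. In WT-tFCI vs. WT-Sham, where the count was 4, they include 5 by DESeq2 and 6 with at least 10 counts in every library. The count of members called in WT-tFCI vs. WT-Sham was 4 and became 8 with only the groups compared in the fit, and 2 to 5 when a library was left out. Leaving out a library gave 1 to 5 members in miKO-tFCI vs. WT-tFCI (5 in the fit of all libraries) and 1 to 4 in the interaction (3). Summed Bcl2a1 in miKO-tFCI vs. miKO-Sham, at -0.03, turned to 0.0412 with at least 10 counts in every library, 0.0676 in batch 2 alone and 0.0084 with miKO-Sham replicates 1 and 2 summed (an alternative chosen after seeing the data), and lay between -0.16 and 0.0685 when a library was left out. Leaving out a library moved it between -0.87 and -0.60 in miKO-tFCI vs. WT-tFCI. Other values near 0 also changed sign. In miKO-tFCI vs. miKO-Sham, Mcl1 was 0.0038 and Bak1 0.0148 in batch 2 alone, and Bak1 was 0.0055 with the 2 libraries summed. In WT-tFCI vs. WT-Sham, Bcl2l11 was 7.57e-04 with only the groups compared. When a library was left out, Bak1 lay between -0.47 and 0.29 in miKO-tFCI vs. miKO-Sham and between -0.0018 and 0.74 in miKO-Sham vs. WT-Sham, Bcl2l1 between -0.19 and 0.0117 and Bcl2l11 between -0.14 and 0.0174 in WT-tFCI vs. WT-Sham, and Bcl2l11 between -0.0057 and 0.24 in miKO-tFCI vs. miKO-Sham. The log2 ratio of Bcl2l1 to Bax lay between -0.35 and 0.0869 in miKO-tFCI vs. miKO-Sham and between -0.15 and 0.10 in miKO-Sham vs. WT-Sham, and that of Bcl2l1 to Bcl2l11 between -0.15 and 0.0126 in WT-tFCI vs. WT-Sham.

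Over all genes, calls in miKO-tFCI vs. WT-tFCI numbered 1629 and became 2466 without a filter on low counts, 745 without a batch term and 3028 with only the groups compared, and 703, 616 and 946 without WT-tFCI replicate 2, WT-tFCI replicate 3 and miKO-tFCI replicate 3. Those in the interaction numbered 629 and became 999 by DESeq2, 1272 without the filter and 303 without a batch term, and lay between 281 and 883 when a library was left out. The standard errors of Bak1 in the comparisons of groups, 0.39 to 0.40, were the largest of the members, and what sets them was not tested.

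Whether replicate numbers pair the libraries is not settled. Correlations were taken between libraries of different groups, with each gene centred on its group mean. For 8 of 12 libraries the mean correlation was highest with libraries of their own number. Between libraries of the same number it was 0.098 to 0.67 for number 1, -0.061 to 0.33 for number 2 (median -0.007) and 0.11 to 0.32 for number 3. Number 1 is also batch 1, so that these cannot be told apart. With the replicate number as a block, the count of members called was 4 in WT-tFCI vs. WT-Sham, summed Bcl2a1 was 1.69 there and -1.71 in the interaction, and none of the 60 results recomputed changed its call.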
